A study of Mus musculus with 6 samples.

Results

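Serpin and TIMP protease inhibitors were examined in the mouse dentate gyrus (DG) after kainic acid-induced status epilepticus (KA-SE). The members were the genes Serpina3n, Serpine2, Serpinf1, Serpinh1, Serpini1, Timp1, Timp2, Timp3 and Timp4. Every array probe was taken whose annotated symbol, updated by Entrez identifier, was one of these. Synonyms were not searched beyond that update for the members, and probes that list several genes were not assigned. Of these 9 genes, 8 had at least 1 probe, 13 probes in all among the 45281 of the array, and no probe was assigned here to Serpine2. The genes were picked with earlier results of the same KA-SE against saline contrast known, so the levels, changes and calls given for them are a description of these arrays and not an independent test. Total RNA came from the micro-dissected right DG of male C57/Black6J mice aged 6 to 8 weeks, killed 72 h after i.p. injection. In the KA-SE group (3 mice), repeated low doses of kainic acid, a glutamate receptor agonist, were given, and only animals with prolonged severe seizures were kept. The saline group (3 mice) received matching injections without the drug. Each mouse was measured once, on Illumina MouseWG-6 beadchips, and the DG was taken whole, with neurons, glia, vessels and any adhering tissue.

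Serpins fold around an exposed loop that a serine protease cleaves as bait, after which the protease stays trapped in a covalent complex. Some family members have lost this activity and act as chaperones or as secreted factors. TIMPs, the tissue inhibitors of metalloproteinases, instead plug the zinc-containing active site of matrix metalloproteinases and of some related ADAM enzymes. In brain both families limit how far secreted proteases remodel the matrix, the synaptic surroundings and the vessel wall, and several are made by astrocytes that react to injury.

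Per array, 48.1% to 50.3% of the probes were detected (detection p-value under 0.05), and median raw intensities lay between 47.8 and 63.0. All signals below are log2 values after background correction and quantile normalization, and levels of different probes cannot be set against each other. Of the 13 probes, 11 met the detection criterion, which asks for detection throughout the KA-SE group, the saline group or both, and were tested together with the other such probes, 21226 in all. The remaining probes were a second one of Serpinh1, detected on none of the arrays, and a further one of Timp3, detected on 2 KA-SE arrays and 1 saline array. Markers of the granule cell, the main neuron of the DG, were partly represented, with Prox1 and C1ql2 detected on every array and Calb1, Tdo2 and Npnt short of the detection criterion, while 5 of 6 markers of CA1 and CA3 pyramidal cells were detected on every array as well.

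Serpina3n rose after KA-SE, and Serpinf1 did so by its brighter probe but not by its dimmer one. Timp1 had a log2 change of 1.77 without passing the threshold, and the other 5 genes had log2 changes between -0.22 and 0.23. With the brightest tested probe standing for each gene, 2 of 8 members were higher at an adjusted p under 0.05 (limma, Benjamini-Hochberg over all tested probes), and 0 were lower. Among all 11222 genes tested, 0.294% were called higher and 0.0178% lower, and among all probes 0.212% and 0.0188%. At an unadjusted p under 0.05, 3 members were higher and 0 lower. The median log2 change of the 8 members was 0.23, against -0.0011 over all genes. Every KA-SE array lay above every saline array for 5 members, where 8.56% of all genes did so. Since the members were picked from this contrast, nothing is read from these shares.

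**Figure D1:**
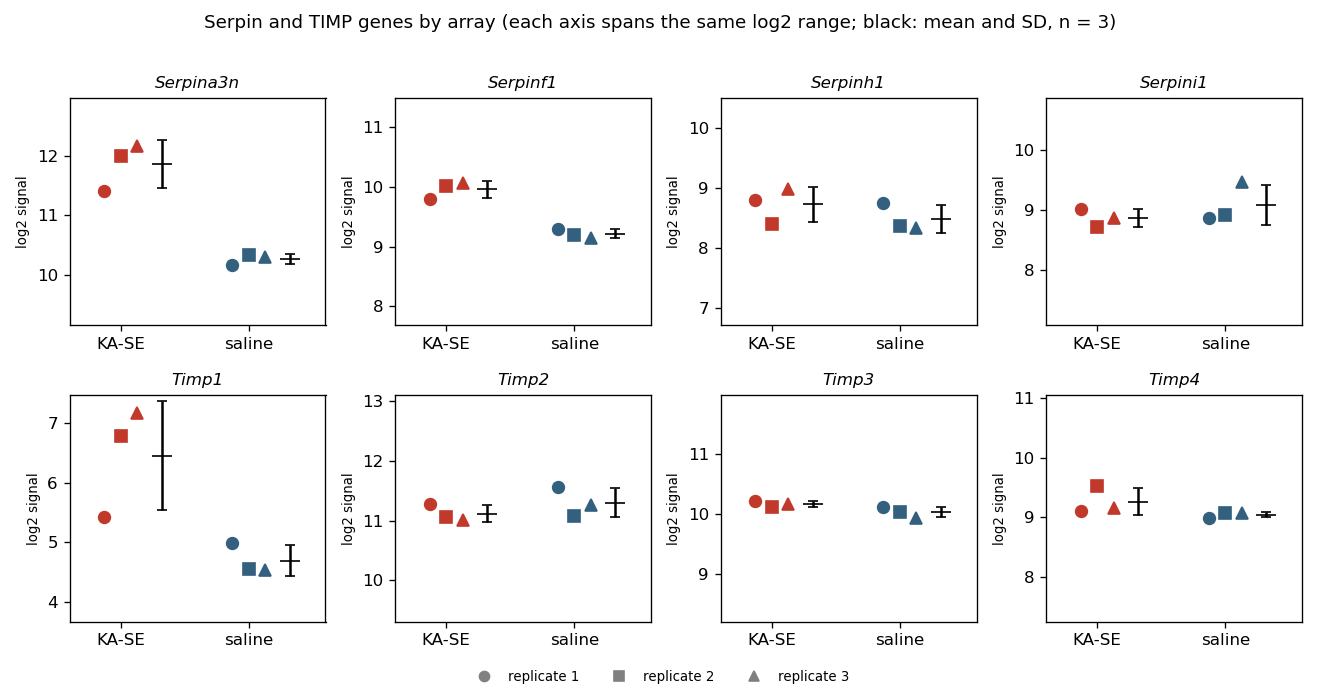
Log2 signal of the 8 genes by array, each from its brightest tested probe. Symbols mark replicates, black bars the mean and SD of 3 arrays, and the vertical axes span equal log2 ranges. The KA-SE arrays of Serpina3n lie between 11.41 and 12.16, all above the saline arrays, and those of Timp1 are the most scattered.

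Serpina3n encodes a secreted inhibitor of chymotrypsin-like proteases and is a well known gene of reactive astrocytes. Its single probe gave log2 signals of 11.41, 12 and 12.16 on KA-SE replicates 1, 2 and 3, against 10.17, 10.33 and 10.30 on saline replicates 1, 2 and 3. The groups did not overlap, and the lowest KA-SE array stood 1.08 above the highest saline array. The mean was 11.86 ± 0.39 in KA-SE and 10.27 ± 0.09 in saline (SD, n = 3 each), 3.01-fold more in KA-SE. The log2 change, with its SE, was 1.59 ± 0.177, and the limma adjusted p was 0.0138. The call was lost without KA-SE replicate 2 (adjusted p = 0.0656), KA-SE replicate 3 (0.0568), saline replicate 1 (0.0664) or saline replicate 3 (0.128) and when dim probes were kept in the test (0.217), while the log2 change stayed between 1.44 and 1.81. Serpina3n belongs to a cluster of near-identical paralogs that its probe cannot be assumed to tell apart. Of 5 paralogs with a probe (Serpina3a, Serpina3b, Serpina3f, Serpina3i and Serpina3j), 0 met the detection criterion.

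Serpinf1 encodes pigment epithelium-derived factor, a secreted serpin without inhibitory activity that supports neurons and restrains vessel growth. The brighter probe had log2 signals of 9.80, 10.02 and 10.06 on KA-SE replicates 1, 2 and 3, against 9.30, 9.20 and 9.15 on the saline replicates. All KA-SE arrays were higher, with a gap of 0.51 between the groups. The mean was 9.96 ± 0.14 in KA-SE and 9.22 ± 0.07 in saline (SD, n = 3 each), 1.68-fold more in KA-SE. By this probe the log2 change was 0.75 with an SE of 0.117, and the limma adjusted p was 0.044. The dimmer probe, also detected on every array, did not follow it. That probe gave 5.55, 5.14 and 5.49 in KA-SE against 5.57, 5.53 and 5.21 in saline, a log2 change of -0.04 with a 95% interval of -0.37 to 0.29. With the mean of both probes the change of Serpinf1 was 0.35 (adjusted p = 0.269), with median scaling 0.62 (0.19), and without KA-SE replicate 2, KA-SE replicate 3, saline replicate 1, 2 or 3 the adjusted p-values were 0.137, 0.142, 0.0998, 0.163 and 0.237.

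Serpinh1 and Serpini1 represent other functions of the family. Serpinh1 encodes HSP47, which does not inhibit proteases but escorts newly made collagen through the endoplasmic reticulum. Its tested probe gave 8.80, 8.40 and 8.98 in KA-SE against 8.76, 8.37 and 8.34 in saline. The groups overlapped, and the log2 change was 0.23 ± 0.169 (95% interval -0.14 to 0.61, adjusted p = 0.835). Serpini1 encodes neuroserpin, a neuronal inhibitor of tissue plasminogen activator. The signals of Serpini1 were 9.02, 8.71 and 8.86 in KA-SE against 8.87, 8.92 and 9.46 in saline, with saline replicate 3 above the other 5 arrays. The log2 change was -0.22 ± 0.165 (95% interval -0.59 to 0.14, adjusted p = 0.846).

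Timp1 encodes a secreted, inducible inhibitor of most soluble matrix metalloproteinases. It was the member with the lowest detection in saline. The brighter of its probes had detection p-values of 0.0192, 0.161 and 0.165 on saline replicates 1, 2 and 3 and was detected on all 3 KA-SE arrays. Its log2 signals were 5.42, 6.78 and 7.16 on KA-SE replicates 1, 2 and 3, against 4.99, 4.55 and 4.53 on the saline replicates. The groups did not overlap, but KA-SE replicate 1 lay only 0.43 above the highest saline array. The mean was 6.46 ± 0.91 in KA-SE and 4.69 ± 0.26 in saline (SD, n = 3 each). This probe changed by 1.77 with an SE of 0.355 on the log2 scale, and the limma adjusted p of 0.102 missed the threshold.

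The second Timp1 probe was not above background on any saline array, with detection p-values of 0.552, 0.219 and 0.174. It gave 5.34, 6.61 and 6.87 in KA-SE against 4.33, 4.49 and 4.52 in saline, so both probes put the KA-SE arrays in the same order. Against the lowest detected signal of each saline array, its KA-SE mean was at least 2.80-fold higher. The limma adjusted p of 0.0565 belongs to the measured difference of this probe, and the bound itself was not tested. Without KA-SE replicate 1 the brighter Timp1 probe had a log2 change of 2.28 and passed (adjusted p = 0.00279). The same probe did not pass without KA-SE replicate 2 or 3 (limma adjusted p = 0.269 and 0.263). Nor did it pass without saline replicate 1, 2 or 3 (0.176, 0.234 and 0.412). With a normexp offset of 50 in place of 16 its change was 1.06, since a larger offset compresses dim signals.

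A short piece of the mouse Timp1 promoter region is shown because TGAGTAA is the AP-1-like letter sequence known from the TIMP1 promoter. It was read from the RefSeq promoter table (build GRCm38.p6), which held all 9 members. The window lies at chrX:20870181-20870210 on the plus strand, with the match in capitals starting at base 27 counted from the annotated gene start as base 1.
Timp1: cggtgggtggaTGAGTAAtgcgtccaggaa
On either strand of the 300-base windows (250 bases before to 50 bases after the start), TGAGTAA occurred in 2.68% of all 32851 promoters and, among the members, in Timp1. The AP-1 consensus TGANTCA occurred in 7.81% of promoters and the STAT motif TTCNNNGAA in 8.30%, and neither was found in the windows of the 9 members. These are letter matches chosen after the changes were known.

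Timp2, Timp3 and Timp4 were detected on all 6 arrays and none passed. Timp2, which besides inhibiting metalloproteinases takes part in the activation of MMP2 at the cell surface, gave 11.28, 11.06 and 11.01 in KA-SE against 11.56, 11.08 and 11.27 in saline. The groups overlapped, with a log2 change of -0.18 (95% interval -0.50 to 0.14). Timp3 binds to the matrix and also inhibits the sheddase ADAM17. Its brightest probe gave 10.22, 10.12 and 10.16 in KA-SE against 10.11, 10.03 and 9.94 in saline. The KA-SE arrays of Timp3 were the higher ones, though with a gap of 0.00 between the nearest pair, and the change was 0.14 (95% interval -0.10 to 0.38). A second tested Timp3 probe had a change of 0.04 (-0.23 to 0.31). Timp4, a member with a narrower tissue range, gave 9.10, 9.52 and 9.16 in KA-SE against 8.99, 9.07 and 9.07 in saline, with a gap of 0.03 and a change of 0.22 (95% interval -0.08 to 0.51). The difference between the Timp1 change and those of its relatives was not tested.

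**Figure D2:**
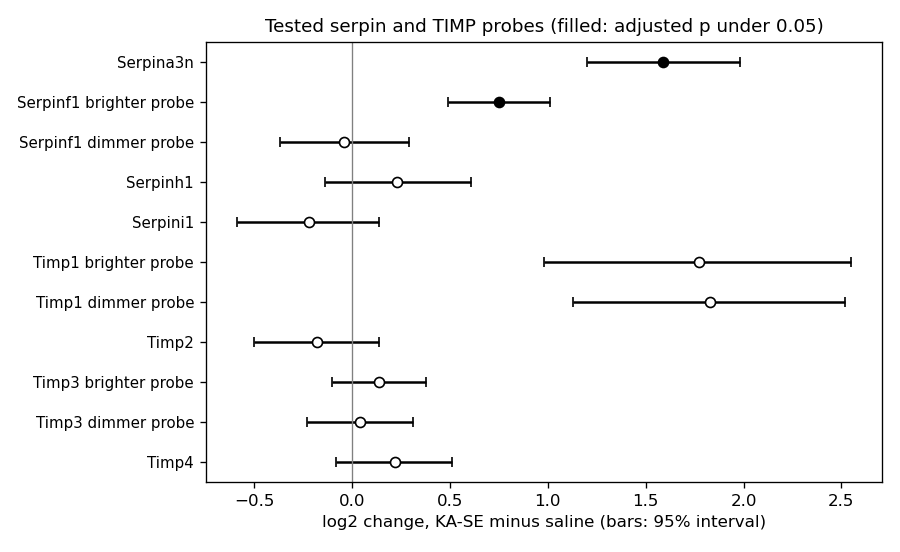
Log2 change, KA-SE minus saline, of the 11 tested probes of the 8 genes, with 95% intervals from limma (n = 3 per group). Filled points passed an adjusted p of 0.05, which holds for Serpina3n at 1.59 and for the brighter probe of Serpinf1 at 0.75.

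In the RefSeq gene table, 3 of the 4 Timp genes lie within a synapsin gene, Timp1 in Syn1, Timp3 in Syn3 and Timp4 in Syn2. Synapsins coat synaptic vesicles in neurons. The brightest probe had a log2 change of -0.08 for Syn1, 0.27 for Syn3 and 0.14 for Syn2, with adjusted p-values of 0.951, 0.629 and 0.926. Other tested probes gave 0.09 for Syn1, 0.18 and 0.08 for Syn3 and -0.06 for Syn2. By its brightest probe Syn1 gave 13.24, 13.16 and 13.07 in KA-SE against 13.41, 13.15 and 13.17 in saline. By the other it gave 12.38, 12.20 and 12.23 against 12.16, 12.24 and 12.13. By neither probe did its KA-SE arrays stand apart as those of Timp1 did.

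The spread between animals differed among the members. The SD of the KA-SE arrays was 0.91 for Timp1, 0.39 for Serpina3n and 0.14 for Serpinf1, against 0.26, 0.09 and 0.07 in saline. For these 3 genes KA-SE replicate 1 was the lowest and replicate 3 the highest of the KA-SE arrays, all above saline. Over all genes tested, 255 of 11222, or 2.27%, had this order. Genes whose profile was most like that of Serpina3n were then looked for, by the root mean square distance between log2 values centred on the saline mean, over the 6 arrays. The nearest were the complement gene C4a (distance 0.16) and its paralog C4b (0.17), the intermediate filament gene Vim (0.17), the small heat shock protein gene Hspb6 (0.19) and Glycam1 (0.23). Probes of C4a and C4b cannot be assumed to tell these near-identical genes apart. For Timp1 the nearest were Glycam1 (0.17), C4b (0.23), the phagocyte glycoprotein gene Gpnmb (0.32), C4a (0.37) and Vim (0.37). C4b, for example, gave 7.87, 8.70 and 9.03 in KA-SE against 6.92, 6.76 and 6.87 in saline. These profiles are of the brightest probes. With the mean of each gene's tested probes, the log2 change was 0.98 in place of 1.68 for C4b and 1.04 in place of 1.51 for Gpnmb. That of C4a was 1.89 in place of 1.81. Glycam1 was detected on only 1 saline array. C4a, C4b, Vim and Glycam1 stood in both sets of 5. As the distance also reflects the size of the KA-SE change, no link between the genes is read from this overlap.

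**Figure D3:**
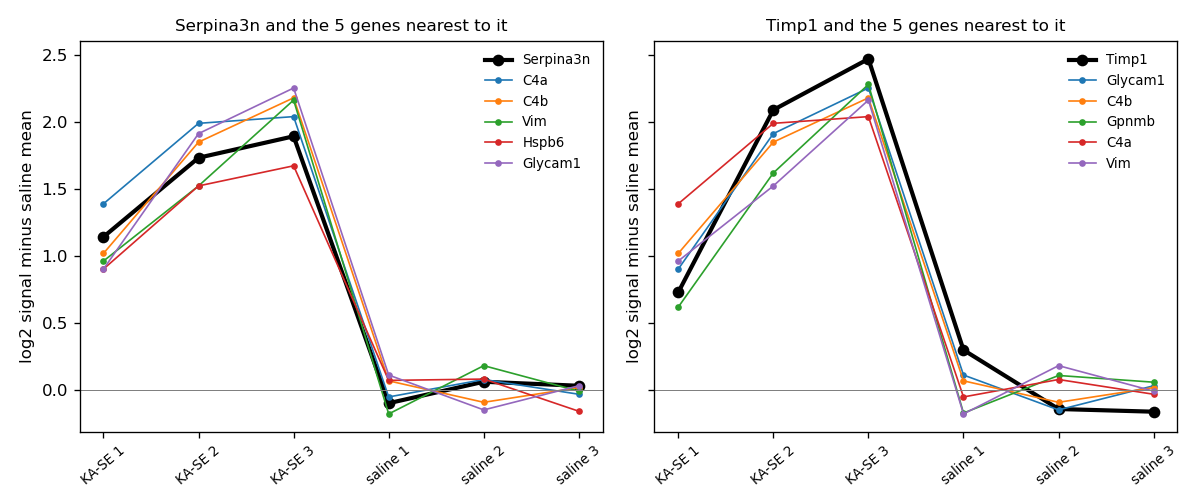
Log2 signal minus the saline mean on each of the 6 arrays for Serpina3n (left) and Timp1 (right), each with the 5 genes nearest to it. Lines only join the arrays of a gene, and in both panels the KA-SE arrays lie above the saline arrays, with KA-SE replicate 1 lowest among them.

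Markers of other cell types were set beside these members. As the tissue was bulk, more cells of a type and more RNA per cell cannot be told apart. All 10 astrocyte markers were tested and had positive changes, with a median of 0.38, in 7 of 10 every KA-SE array lay above saline, as in 8.56% of all genes, and 1 passed, as did 0.294% of all genes. Their summed linear signal ranged from 49000 to 51900 in KA-SE and from 35300 to 38200 in saline, and Gfap, the astrocyte filament gene, was 1.89 higher on the log2 scale (adjusted p = 0.00057). Such sums, here and below, follow the brightest probes most and need not describe a list as a whole. Of the 7 tested microglia and macrophage markers 0 passed, 6 had every KA-SE array above saline, and the median change was 0.59, with sums of 2220 to 3210 in KA-SE and 1720 to 1840 in saline. In that list the median relative to saline was 0.29, 0.51 and 0.74 on KA-SE replicates 1, 2 and 3. In the astrocyte list it was 0.30, 0.36 and 0.38, so replicate 1 was the lowest in both lists. Of the lists below, replicate 1 was also lowest for fibroblast markers (-0.13, -0.06 and 0). It was not lowest for oligodendrocyte markers (0.18, 0.09 and 0.12) or for endothelial and mural markers (0.13, -0.01 and 0.24). The 7 oligodendrocyte markers had a median of 0.11, with 6 positive changes and 0 passing, and their sums, 53400 to 58400 in KA-SE and 50600 to 51700 in saline, did not overlap either. Cldn11, a bright gene of that list, had its largest change, 0.45. The 11 endothelial and mural markers had a median of 0.25, with sums of 2400 to 3300 in KA-SE and 2230 to 2960 in saline, and the 8 tested meningeal and perivascular fibroblast markers had one of -0.08, with sums of 3590 to 4340 in KA-SE and 3150 to 6480 in saline. The part of these cell types in the changes of Serpina3n, Serpinf1 and Timp1 was not tested.

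The remaining serpins of the array were compared next. Of 52 other serpin genes with a probe, 6 met the detection criterion, and 0 of these passed in either direction (median log2 change 0.24). Serpinf2 encodes the plasmin inhibitor alpha-2-antiplasmin, and it gave 5.40, 5.76 and 5.79 in KA-SE against 5.13, 4.92 and 5.05 in saline. Its change was 0.62 ± 0.135 (adjusted p = 0.132). Serping1, which encodes the C1 inhibitor of the complement cascade, gave 7.96, 8.22 and 8.09 in KA-SE against 7.84, 7.32 and 7.31 in saline, a change of 0.60 ± 0.156 (adjusted p = 0.236), and another tested probe gave 0.54. By their brightest probes the KA-SE arrays of both genes lay above saline, yet neither gene passed. By the other Serping1 probe the KA-SE arrays did not all lie above saline. Serpinf2 was dim, and with a normexp offset of 50 its change was 0.34. Serpinb6a, an intracellular inhibitor, had a change of 0.22.

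Protease genes that the inhibitors act on, or that belong to the same enzyme classes, had smaller log2 changes than Serpina3n. The largest of these, that of Klk6 at 0.79, was not smaller than that of Serpinf1 at 0.75. Of 18 listed serine proteases, 9 were tested and 0 passed (median change 0.10), and of 29 listed metalloproteinases, 14 were tested and 0 passed (median 0.07). Klk6, a kallikrein of oligodendrocytes, gave 7.11, 7.09 and 7.40 in KA-SE against 6.73, 6.22 and 6.28 in saline, a change of 0.79 ± 0.156 (adjusted p = 0.0957), with 0.80 by its other tested probe. Plat, which encodes the tissue plasminogen activator that neuroserpin inhibits, gave 9.18, 9.82 and 9.54 in KA-SE against 9.01, 9.07 and 8.81 in saline, a change of 0.55 (adjusted p = 0.312). Neither pair of groups overlapped. Prss12, which encodes the synaptic protease neurotrypsin, was at -0.31 (0.432), and all of its KA-SE arrays were below saline.

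Among the metalloproteinases, Mmp2, a gelatinase that TIMPs inhibit, gave 6.33, 6.43 and 6.78 in KA-SE against 6.29, 5.71 and 5.85 in saline. The groups came within 0.04 of each other, and the change was 0.56 ± 0.172 (adjusted p = 0.33). Adam9, a membrane sheddase, had a change of 0.30 (adjusted p = 0.681) and the aggrecanase gene Adamts1 one of -0.20 (0.80). Mmp9, the other gelatinase, was at 0.15, and Adam17, the sheddase that TIMP3 inhibits, at 0.11, both named for their link to the TIMPs and not for their values.

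**Figure D4:**
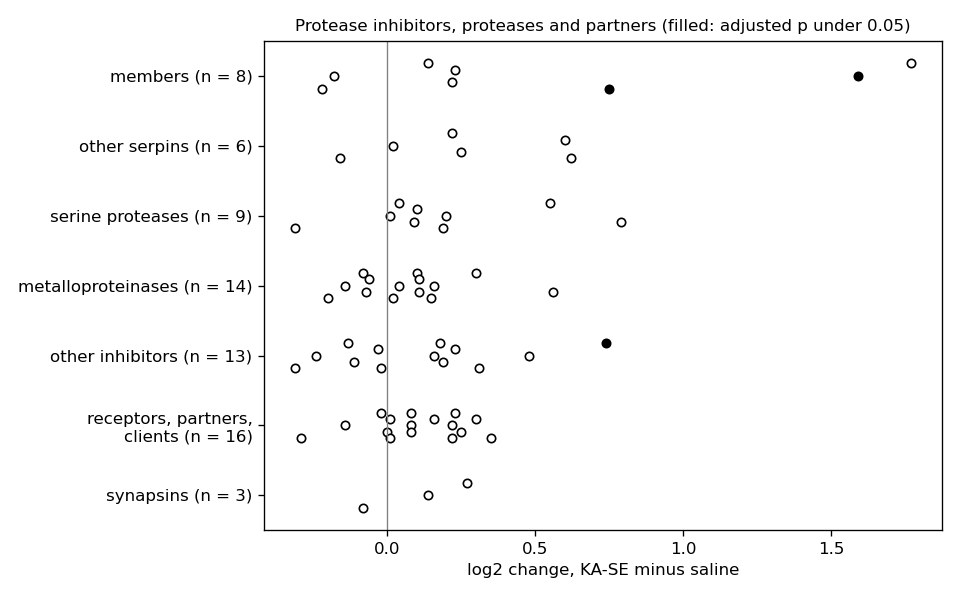
Log2 change, KA-SE minus saline, of the tested members and of the listed serpins, proteases, inhibitors, partners and synapsins, 1 point per gene, with vertical offsets only to separate points. Filled points passed an adjusted p of 0.05. Beside Serpina3n and Serpinf1, Spint1 at 0.74 is the filled one.

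Of 23 other protease inhibitor genes listed, 13 were tested, with a median change of 0.16. Of these, 1 was called higher and 0 lower, where 0.294% and 0.0178% of all genes were. Spint1 encodes a membrane-bound Kunitz-type inhibitor of the hepatocyte growth factor activator. It gave 8.03, 8.08 and 8.20 in KA-SE against 7.52, 7.22 and 7.34 in saline, without overlap. The log2 change was 0.74 with an SE of 0.121, and the limma adjusted p was 0.0478. The call of Spint1 was lost whichever array was left out, with adjusted p-values of 0.0708, 0.137 and 0.149 without KA-SE replicates 1, 2 and 3, and of 0.095, 0.193 and 0.238 without saline replicates 1, 2 and 3. Itih3, an inter-alpha-trypsin inhibitor heavy chain gene, had a change of 0.48 (adjusted p = 0.43), with 0.39 by another tested probe. Wfdc1 had one of 0.31, while other tested probes of it gave 0.01 and -0.33.

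Receptors, binding partners and client proteins of the members were compared last. Of 21 listed genes, 16 were tested and 0 passed, with a median change of 0.08 and values from -0.29 to 0.35. Col1a1, a collagen gene whose product needs HSP47, gave 0.30 (adjusted p = 0.633), and Cd63, whose tetraspanin product binds TIMP1, gave 0.22 (0.707), or 0.14 and 0.17 by other tested probes. Lrp8, an apolipoprotein E and reelin receptor gene, was at 0.23 (0.718). Cd63 had 10.75, 10.87 and 11.01 in KA-SE against 10.74, 10.54 and 10.68 in saline, so its groups came within 0.02 of each other.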

How the data were processed

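The authors hybridized labelled cRNA of 6 mice to Illumina MouseWG-6 beadchips, with an array for each mouse, and read them in GenomeStudio. The deposited intensity is linear and neither normalized nor background-subtracted, and each has a detection p-value deposited with it, which the authors based on negative control and mismatch probes. A further table, called a score here, was background-corrected, transformed and normalized by the authors. Its columns share 1 distribution (15.0 to 23.2), its log base and offset are unknown, and it was used as an alternative. For these steps no software version is named in the sources used here. Groups came from sample titles. The columns of KA-SE replicates 2 and 3, whose names hold an additional digit, were assigned by their last number. Slide and scan batches were not tested.

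Intensities were corrected by normexp with background inferred from the detection p-values (offset 16), quantile normalized and log2 transformed (limma 3.58.1, R 4.3.3). Probes detected (p under 0.05) throughout the KA-SE group, the saline group or both, 21226 in all, were fitted by limma with empirical Bayes moderation (6.40 prior degrees of freedom). Tests were two-sided, and p-values were adjusted after Benjamini and Hochberg over all these probes. Standard errors and 95% intervals are the moderated ones. A gene is represented by its brightest tested probe, the one of highest mean. For a probe above background on no saline array, the fold is a lower bound against, per array, the lowest detected signal or its own if higher. The study's permutation test was replaced, since the smallest p that permuting 3 against 3 arrays can give for a single probe is 0.1. The study does not state whether its permutation was made probe by probe. The number of arrays limits the precision.

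Symbols came from the platform annotation, updated by Entrez identifier through RefSeq (GRCm38.p6): 34885 probes had 1 gene, 18 several and 10378 none. No probe coordinates are given, as the annotation names no build. Members, lists, tests and alternatives were chosen with earlier results of these data known. The named genes are all members, list genes that passed, the 3 of each list with the smallest p, and the 5 nearest to Serpina3n and to Timp1. Cell type markers, synapsins, Serpina3 paralogs, Mmp9 and Adam17 are named beside these for context. Alternatives covered offset, scaling, value table, detection filter, variance trend, array weights, replicate block, probe averaging and omission of each array. The fit was tested on simulated data.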

Additional observations from a re-analysis of the deposited data

How the results depend on the processing

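Alternatives were run for the 8 members and 27 other named genes, those for the other genes being added after seeing the data. In rounded values none of these genes took the opposite sign. Wfdc1 and Syn1 with probes averaged, Syn1 without saline replicate 1 and Timp3 with median scaling rounded to 0.00, so their sign there is not given. Of 14 alternatives, Serpina3n passed in 9, Serpinf1 in 4 and Timp1, which did not pass as reported, in 3: median scaling (log2 change 1.72, adjusted p = 3.27e-05), array weights (1.84, 0.0336) and without KA-SE replicate 1 (2.28, 0.00279). On the log2 scale the change of Serpina3n lay between 1.44 and 1.81, that of Serpinf1 between 0.35 and 0.83 and that of Timp1 between 1.06 and 2.28. Over the alternatives adjusted p-values ran from 9.82e-06 to 0.217, from 0.0166 to 0.269 and from 3.27e-05 to 0.48. The other 5 members passed in 0 (lowest adjusted p = 0.485). For the other named genes, 329 of 378 values kept their side of the threshold. Of 14 alternatives, C4a and Gfap passed in 13 each, Hspb6 in 7, C4b in 6, Vim in 5, and Glycam1 and Spint1 in 4 each, while Gpnmb, which did not pass as reported, gained a call in 3.

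In all, 45 probes were higher and 4 lower in KA-SE. With the authors' processed table the counts were 8 and 1 by limma, with no filter on dim probes 0 and 0 (1693 and 1307 at an unadjusted p under 0.05), with a variance trend 72 higher and with array weights 83 higher. Median scaling gave 63 and 15, so 80.8% of calls were higher against 91.8% as reported, and moved the median of all probes to -0.10; Timp3 then stood at 0.00 and Timp4 at 0.09. Leaving out 1 array each gave 4 to 76 higher and 0 to 3 lower probes, and 0 to 3 higher members. The count of higher members was 1 with the authors' table, 1 with a gene's probes averaged and 0 with no filter on dim probes (3 at an unadjusted p under 0.05); the cause was not tested.

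With the replicate number as a block, 28 probes were higher and 1 member was (Serpina3n, adjusted p = 0.00951; Serpinf1, 0.0699). Deviations of same-numbered arrays correlated at 0.022, 0.185 and 0.239, and those of differently numbered arrays at -0.206 to 0.053. The replicate number was not taken to pair the animals in the main fit, and whether it stands for a shared batch was not tested. Signal over background limits Timp1, detected on 1 and on 0 saline arrays by its probes.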

Other observations

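Choroid plexus genes, which mark tissue next to the dissected DG, varied widely among the saline arrays. The summed linear signal of 7 tested choroid plexus markers ranged from 10700 to 13700 in KA-SE and from 667 to 32100 in saline. Ttr, the transthyretin gene, had log2 signals of 13.28, 13.64 and 13.43 on KA-SE replicates 1, 2 and 3, against 14.85, 7.82 and 13.32 on saline replicates 1, 2 and 3. Wfdc2, a protease inhibitor gene named here after its values were seen, gave 5.56, 6.04 and 5.98 in KA-SE against 7.93, 4.39 and 6.19 in saline, high and low on the same saline arrays as Ttr. Serpina3n and Serpinf1 had ranges of 10.17 to 10.33 and 9.15 to 9.30 on these saline arrays. Timp2 gave 11.56, 11.08 and 11.27 on saline replicates 1, 2 and 3, the same order as Ttr. By their brightest probes, Serpinf1, Serpinh1, Timp1 and Timp3 were also highest on saline replicate 1, while Serpina3n, Serpini1 and Timp4 were not. The second Timp1 probe was lowest there. The part of choroid plexus tissue in the values of the members was not tested.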
